A study of Rattus norvegicus with 6 samples.

Results

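The RNAs described here are named long noncoding RNAs of rat hippocampus: Miat, Gas5, Snhg11, Snhg4, H19, Bc1 and Rmrp. These 7 genes were taken by symbol from the 13143 symbols of the deposited lncRNA table and from the 35362 symbols of the deposited mRNA table, and all 7 were matched in both. The animals were Sprague-Dawley rats with a labelled age of 7 weeks. The treated group received benzo[a]pyrene, written B[a]P in the figures and a polycyclic aromatic hydrocarbon of smoke and charred food, in corn oil at 2.0 mg/kg by gavage once a day for 7 weeks, and the control group received corn oil in the same way. Each group had 1 RNA-seq library, and the labels do not say whether it held 1 animal or a pool. Every difference below is therefore between 2 libraries, has no replicate check and carries no test. Values are in FPKM (fragments or reads scaled for library depth and transcript length), a unit inferred from the values because no label states it.

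Long noncoding RNAs act without being translated, and these 7 do so in different ways. Miat (also called Gomafu) is a neuronal nuclear RNA that binds splicing factors. Gas5, Snhg4 and Snhg11 are host genes, whose introns are processed into small nucleolar RNAs (snoRNAs) that guide modification of ribosomal and other RNAs. The spliced Gas5 RNA is degraded by nonsense-mediated decay when it is translated, and it can bind the glucocorticoid receptor. H19 is an imprinted RNA transcribed from the maternal chromosome beside Igf2, and it is abundant in the embryo and low in most adult tissues. Bc1 is a short RNA polymerase III transcript of rodent neurons that is carried into dendrites and represses translation there. Rmrp is the RNA component of RNase MRP, which cleaves the precursor of ribosomal RNA.

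The start of Bc1 is shown because its letters bear on how far its values can be read. The small RNAs cut from H19 are shown for reference. They are RefSeq sequences of build GRCr8, written 5′ to 3′. The first is the start of Bc1 (chr1:209502897-209502946, plus strand), with the 11 letters that resemble the A box of tRNA genes, TAGCTCAGTGG, in capitals at bases 14 to 24. The other 2 are the arms of miR-675, which is processed from H19, at chr1:207161800-207161821 (5p) and chr1:207161766-207161786 (3p) on the minus strand, with the seed (bases 2 to 8) in capitals.
Bc1 start: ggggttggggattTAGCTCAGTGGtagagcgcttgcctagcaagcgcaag
rno-miR-675-5p: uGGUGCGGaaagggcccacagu
rno-miR-675-3p: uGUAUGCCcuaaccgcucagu
Bc1 arose from a tRNA gene, and its start resembles the ID repeats that are scattered over the rat genome. The first 25 bases of Bc1 were found unchanged in 93 of 33468 other RefSeq gene start windows of 300 bases (0.278%), 40 on the gene's strand and 57 on the other strand, some windows holding both. Allowing 1 mismatch, 194 windows held them. All 50 printed bases occurred in 11 other windows. The starts of Gas5, Snhg11 and Snhg4, searched in the same way with 25 bases, occurred in 0 other windows. The 11 tRNA-like letters alone were in 224 of all 33469 windows (0.669%), counting both strands. The windows that hold the first 25 bases are among them, since those bases contain these letters. A count for Bc1 can thus include or lose reads of repeat copies, according to how the authors assigned reads that match several places, which no label or header states.

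The 7 RNAs covered a range of 139579-fold in the control library of the mRNA table. Rmrp was highest, at 32841 FPKM in the treated library and 37484 FPKM in the control library. It ranked 2 among all symbols in each library, after an uncharacterized symbol, LOC102723236, which was at 1070000 against 1240000 FPKM. Gas5 followed at 38.2 FPKM (treated) and 37.3 FPKM (control). Miat was at 28.2 and 22.6 FPKM and Snhg11 at 23.5 and 19.7 FPKM. These 3 were at 3.004 to 5.69 times the median of symbols at 1 FPKM or more. Snhg4 was at 5.58 and 5.50 FPKM, 0.801 and 0.839 times that median. Bc1 was at 2.91 and 3.59 FPKM, so the RNA listed as Rmrp was 11296 times (treated) and 10446 times (control) as high per length as Bc1, although both are short RNA polymerase III transcripts. How fully RNAs this short were captured, and how their length entered the FPKM, was not tested. The gap between Rmrp and Bc1 is therefore one of listed values and may not be one of amounts in the tissue. H19 was lowest, at 0.142 and 0.269 FPKM. With 1 library per group, no spread is available to say which neighbours in this order differ.

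**Figure D1:**
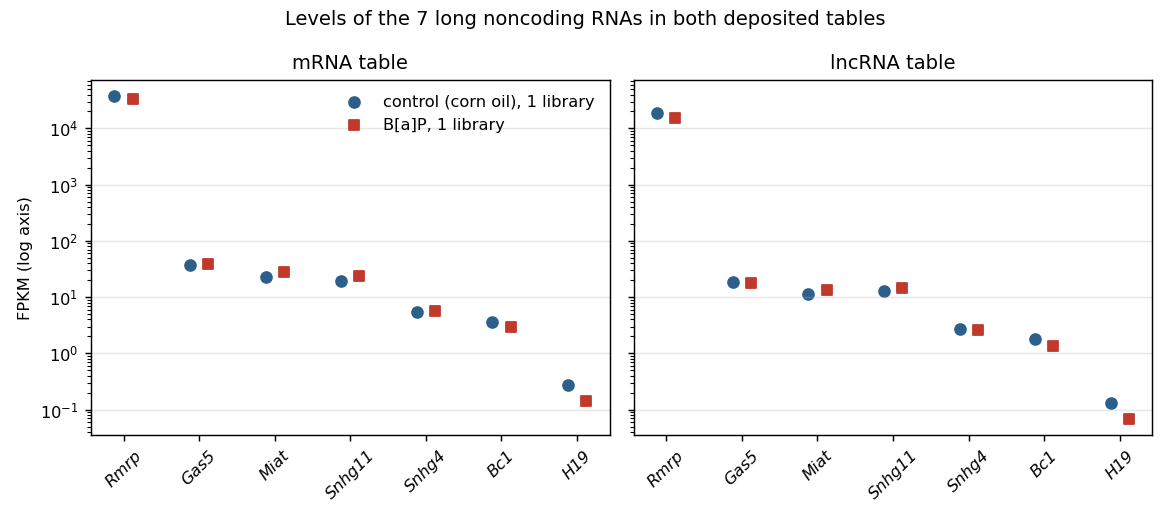
FPKM of each RNA on a log axis in the mRNA table (left) and the lncRNA table (right); circles are the control library and squares the treated library, 1 library each. Rmrp stands far above the rest and H19 below all others, and Miat lies above Snhg11 on the left but below it on the right.

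Each of the 7 symbols had 1 line in each table, so lines within a symbol could not be compared for them. Among all 13143 symbols of the lncRNA table, 11643 (88.6%) had 1 line, and the other 1500 had 2 to 41 lines. For the 253 of those with 2 or more lines at 0.5 FPKM in the control library, the highest line was 1.12 times the lowest at the median and 6.91 times at most.

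The same RNAs carried lower numbers in the lncRNA table, by a factor that differed between the libraries. Over 5098 symbols on 1 line with values above 0 in both libraries, the lncRNA value was 0.474 times the mRNA value in the treated library and 0.497 times in the control library at the median. Rmrp, Gas5, Miat, Snhg4, Bc1 and H19 followed these 2 factors with a largest deviation of 0.00036%, so for these 6 the tables hold 1 measurement on 2 scales. Because the factors differ, the plain treated to control ratio of each of these 6 on the lncRNA scale differs by -0.066 in log2 from that on the mRNA scale.

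Snhg11 was the exception. It was at 14.6 FPKM (treated) and 12.8 FPKM (control) in the lncRNA table, which is 1.309 and 1.310 times what the common factors give from its mRNA values. Of the 5098 symbols, 409 (8.02%) departed by more than 0.1% in either library, and 62 (1.22%) lay at 1.3 times or more in both. The share was larger at the level of Snhg11: 77 of 193 (39.9%) symbols at 10 FPKM or more in both libraries of the mRNA table departed. Of the 5098 symbols, 1345 were matched to RefSeq, and 61 of the 3753 not matched departed (1.63%). Among the matched symbols, departures were common in those that RefSeq calls protein-coding (344 of 469, 73.3%) and rare in those it calls lncRNA (4 of 723, 0.553%). Snhg11 was 1 of those 4. The other 3 were LOC100910905, LOC102555043 and LOC102553495, each under 1 FPKM in the lncRNA table. The departure changes the order of levels: Miat was 1.20 times (treated) and 1.15 times (control) Snhg11 in the mRNA table, and 0.917 and 0.877 times Snhg11 in the lncRNA table. What set Snhg11 apart was not tested.

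**Figure D2:**
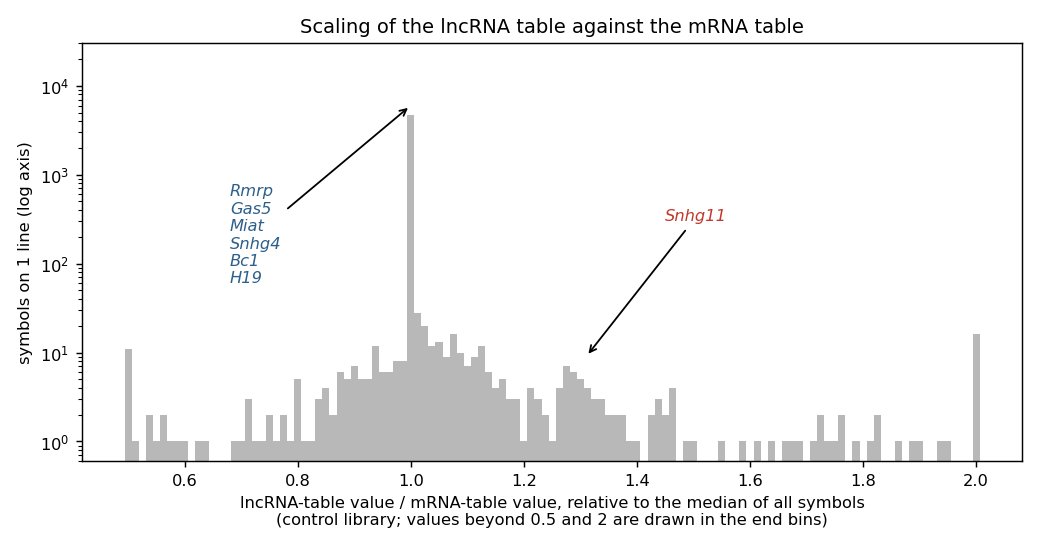
Number of 1-line symbols (log axis) by their lncRNA-table value over their mRNA-table value in the control library, relative to the median of all 5098 symbols. The bins around 1 hold 6 of the 7 RNAs, and Snhg11 lies at 1.31.

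As plain ratios of the listed values, 6 of the 7 RNAs differed by less than 1.5-fold between the libraries. On the scale of log2(FPKM + 0.1) for the lncRNA table and log2(FPKM + 1) for the mRNA table, 0 of the 6 RNAs above the floor (0.5 or 1 FPKM in either library) differed by 1.5-fold in either table. Among all features above the floor, 6.03% of 2007 lines of the lncRNA table and 1.79% of 13261 symbols of the mRNA table did, so 0 of 6 is near the background. The median log2 ratio over the 6 was -0.038 in the lncRNA table and 0.026 in the mRNA table, beside 0.095 for all lines and 0.088 for all symbols.

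Miat, the splicing-factor binding RNA, was the highest relative to control. It was at 13.4 FPKM (treated) and 11.2 FPKM (control) in the lncRNA table, 1.19 times as high, and 1.25 times as high in the mRNA table. Its log2 ratio was 0.25 (lncRNA table) and 0.30 (mRNA table). A lower ratio was held by 74.5% of lncRNA-table lines and 94.7% of mRNA-table symbols above the floor. Of its partners and targets searched, 6 of 7 symbols were matched and 0 of the 5 above 1 FPKM differed by 1.5-fold, with a median log2 ratio of 0.07. Qk, which encodes the RNA-binding protein quaking and is high in oligodendrocytes, was at 4.02 against 5.12 FPKM. Srsf1, a splicing factor gene, was at 32.5 against 29.4 FPKM, and Erbb4, a neuregulin receptor gene whose splicing Miat affects, at 8.60 against 7.05 FPKM. RefSeq places Miat between Cryba4 (0.0428 against 0.0404 FPKM) and Mn1 (3.78 against 3.79 FPKM).

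Among the snoRNA hosts, Snhg11 was higher in the treated library in both tables and Gas5 and Snhg4 were close to equal. Snhg11, a neuronal host gene, was 1.14 times (lncRNA table) and 1.19 times (mRNA table) the control value. Gas5 was at 18.1 against 18.5 FPKM in the lncRNA table, 0.977 times, and 1.02 times in the mRNA table. Snhg4 was at 2.65 against 2.73 FPKM, 0.970 times, and 1.02 times in the mRNA table. The side of 1 on which Gas5 and Snhg4 lie is thus set by the table that is read, and no direction is given for them. Relative to the median of its own table, each lay lower in both: the difference in log2 was -0.13 (lncRNA) and -0.056 (mRNA) for Gas5, and -0.14 and -0.069 for Snhg4.

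RefSeq annotates 9 snoRNAs within Gas5, among them Snord78 and Snord81, Snora71e and Snora60 within Snhg11, and 0 within Snhg4. None of 18 snoRNA symbols of these hosts and none of 19 other host gene symbols searched was matched in the mRNA table, so the mature products of the hosts are not analysed here. Snhg4 lies within the span of Matr3, which encodes the nuclear matrix protein matrin 3 and was at 70.4 against 61.2 FPKM. No source used here says whether counting used the strand, so reads of Snhg4 and Matr3 may not be told apart. Sil1 and Paip2, the next genes on either side of Snhg4, were at 4.99 against 4.97 FPKM and 33.8 against 31.98 FPKM. Beside Snhg11, Ralgapb was at 18.1 against 15.6 FPKM and Lbp at 0.117 against 0.168 FPKM. Zbtb37, on one side of Gas5, was at 4.03 against 3.31 FPKM.

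Factors of nonsense-mediated decay, the pathway that degrades spliced Gas5, numbered 15 above 1 FPKM, and 0 differed by 1.5-fold. Their median log2 ratio was 0.10, with the kinase gene Smg1 at 9.92 against 8.10 FPKM, Rbm8a at 7.50 against 6.38 FPKM and the exon junction helicase gene Eif4a3 at 27.3 against 24.3 FPKM. The glucocorticoid receptor gene Nr3c1, whose product Gas5 can bind, was at 17.9 against 17.5 FPKM. Of 12 genes of that receptor and its targets, 0 differed by 1.5-fold on the scale of log2(FPKM + 1) and the median was -0.0041. Lcn2 was at 0.587 against 1.21 FPKM, 2.06-fold lower as a plain ratio but short of 1.5-fold with the pseudocount of 1, the cell cycle inhibitor gene Cdkn1a at 5.04 against 7.36 FPKM and Klf9 at 46.2 against 38.7 FPKM.

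**Figure D3:**
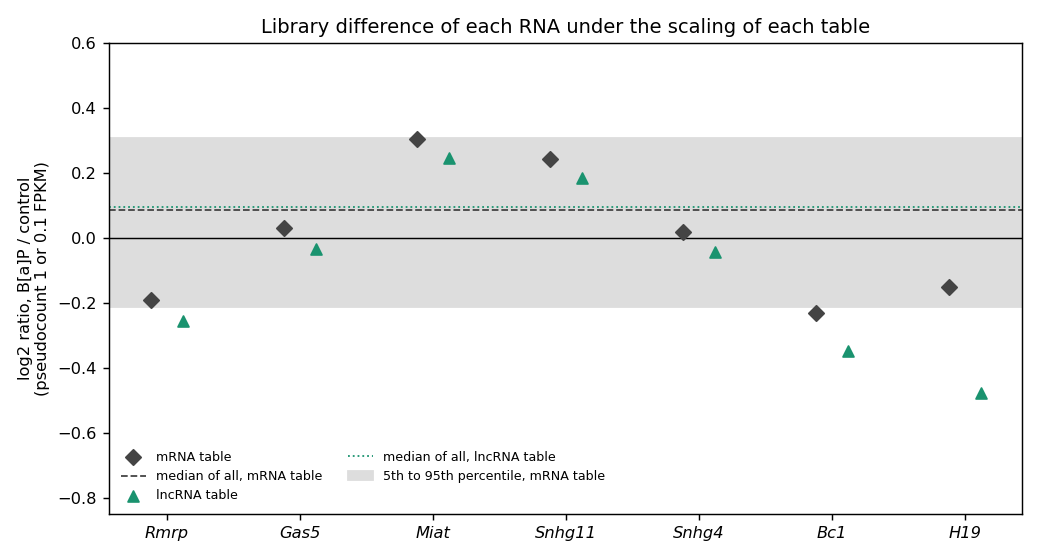
Log2 ratio of the treated to the control library for each RNA, in the mRNA table (diamonds) and the lncRNA table (triangles), with the median of all features of each table (lines) and the 5th to 95th percentile of the mRNA table (band). Gas5 and Snhg4 lie above 0 as diamonds and below 0 as triangles, and Miat and Snhg11 lie above the medians in both.

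Rmrp and Bc1 were lower in the treated library in both tables, which hold the same measurement of them on different scales. For Bc1 the counting interval given below includes no difference at its smallest counts. Rmrp was at 15573 against 18613 FPKM in the lncRNA table, 0.837 times, and 0.876 times the control value in the mRNA table. Bc1 was at 1.38 against 1.78 FPKM, 0.774 times, and 0.810 times in the mRNA table. RefSeq places Bc1 within the span of Lto1, a symbol not matched in the mRNA table, between Fgf19 (0.104 against 0.0492 FPKM) and the cyclin gene Ccnd1 (4.05 against 3.43 FPKM). The mRNA-table log2 ratios of Rmrp and Bc1, -0.19 and -0.23, had 5.75% and 4.37% of symbols below them. Terc, the telomerase RNA, was the single match among 33 other noncoding RNAs searched in the mRNA table, at 25.6 against 27.3 FPKM. Ribosomal RNAs, chosen after their values were seen, mostly had lower values in the treated library: Rn28s was at 223 against 278 FPKM and the precursor Rn45s at 136 against 169 FPKM. Rn18s was at 5.20 against 5.50 FPKM, Rn5-8s at 0.658 against 0.690 FPKM and Rn5s, the exception, at 0.475 against 0.449 FPKM. The Rn5s ratio, 1.0595, is the one that equal counts in both libraries give, as set out below.

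The identity of the gene listed as Rmrp is uncertain. The symbol Rmrp matched RefSeq only as a synonym of Rpph1, a record that RefSeq types as RNase MRP RNA, while Rpph1 is the usual symbol of the RNA of the related RNase P. No line with the symbol Rpph1 was matched in the mRNA table. The RefSeq record lies within Parp2, a poly(ADP-ribose) polymerase gene at 4.17 against 2.97 FPKM, between Ccnb1ip1 (0.0754 against 0.0928 FPKM) and Tep1 (1.46 against 1.19 FPKM). RNase MRP and RNase P share most proteins. All 11 protein genes searched were above 1 FPKM and 0 differed by 1.5-fold, with a median log2 ratio of 0.09, Pop7 at 24.1 against 23.6 FPKM, Pop4 at 14.5 against 11.1 FPKM and Rpp38 at 3.20 against 2.36 FPKM. The proteins that bind Bc1 or act with it in dendritic translation gave 0 of 16 past 1.5-fold and a median of 0.12. The initiation helicase gene Eif4a1 was at 91.6 against 84.1 FPKM, Syncrip at 8.96 against 7.56 FPKM, and Ssb, whose product La binds polymerase III transcripts, at 32.9 against 28.8 FPKM.

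H19 had the largest plain ratio of the 7 and the lowest level. It was at 0.0675 against 0.133 FPKM in the lncRNA table and 0.142 against 0.269 FPKM in the mRNA table, 1.98-fold and 1.89-fold lower in the treated library and below the floor in each. Both miR-675 arms printed above were listed at 0 in both small RNA libraries. A 0 there says little, since 262 of 765 miRNAs (34.2%) were listed at 0 in both and let-7a-5p was among them; the smallest values above 0 were 0.696 RPM (reads scaled to the library total; treated) and 0.615 RPM (control).

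The depth behind H19 and Bc1 can be read in part from the values. For 3143 symbols under 0.05 FPKM, 80.9% of the ratios between the libraries lay within 1e-05 (natural log) of a quotient of 2 whole numbers, each at most 6, times 1 constant, 1.0595, against 0% at 6 shifted constants. Equal counts in both libraries therefore appear as a ratio of 1.06 in the mRNA table and, with the scale factors above, 1.01 in the lncRNA table. H19 lay on a ratio of 1 to 2 counts, treated to control, and Bc1 on 13 to 17, within the rounding of the values in both tables. For the other 5 RNAs no whole numbers up to 50 gave the ratio. Among symbols of like level, 3.90% had a quotient of numbers up to 2 (0.1 to 1 FPKM) and 1.81% one of numbers up to 17 (1 to 10 FPKM), against 0.0032% and 0.0844% at shifted constants.

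The counts may be these numbers or the same multiple of both. Taken as they stand, which gives the widest interval, the mRNA-table ratio of Bc1 was 0.810 with an exact (Clopper-Pearson) 95% interval of 0.362 to 1.77. For H19 the interval was 0.0090 to 10.2. Each interval includes 1 and covers counting error only, so a difference of H19 or Bc1 between the libraries was not detectable at the depth these smallest counts give. As they stand, 1 count in the control library would be 0.134 FPKM for H19 and 0.211 FPKM for Bc1. A count weighs less on a longer RNA, and 3143 symbols lay above 0 but under 0.05 FPKM in both libraries. The pairs of H19 and Bc1 may thus not both be the counts themselves, and a larger multiple would narrow the interval.

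**Figure D4:**
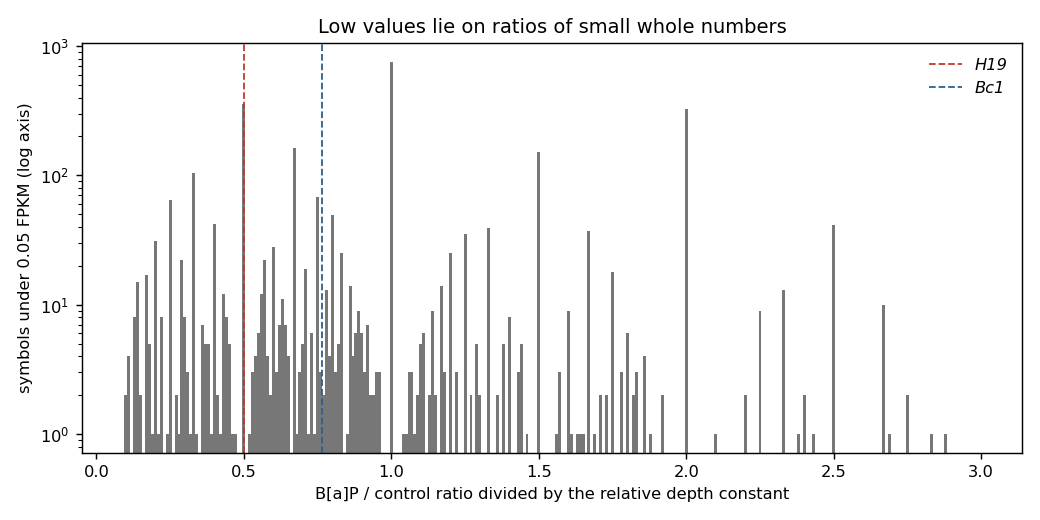
Number of symbols under 0.05 FPKM (log axis) by their treated to control ratio in the mRNA table divided by the depth constant. The values pile up on ratios of small whole numbers, and H19 stands on the ratio of 1 to 2.

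Igf2, the growth factor gene beside H19 that is expressed from the other parental chromosome in most tissues, was at 3.37 against 13.8 FPKM, 4.09-fold lower. Mrpl23, the mitochondrial ribosomal protein gene on the other side, was at 22.5 against 24.04 FPKM. Of the 12 matched genes of the imprinted network, 9 were above 1 FPKM, 2 were at least 2-fold lower and 0 at least 1.5-fold higher, where 0.52% of all symbols were 2-fold lower and 0.603% 1.5-fold higher. These 2 were Igf2 and Cdkn1c, a cell cycle inhibitor gene, at 2.31 against 5.68 FPKM, and Gnas was at 45.3 against 40.5 FPKM. The list's median was 0.10.

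Igf2 is also expressed in choroid plexus and meninges, and most choroid plexus markers were lower in the treated library. Most meningeal and vessel markers lay below the median of all symbols but were not past 1.5-fold. Of 16 choroid plexus and ependymal markers above 1 FPKM, 12 were at least 2-fold lower, and the 17 matched markers summed to 98.5 FPKM in the treated library and 3617 FPKM in the control library. Of 14 meningeal, endothelial and mural markers, 2 (Slc13a4 and Igf2) were 2-fold lower, with sums of 119 and 146 FPKM and a median log2 ratio of -0.067. Among the others, the endothelial gene Cldn5 was at 54.5 against 59.1 FPKM, and the fibroblast gene Dcn at 7.72 against 9.44 FPKM. Ogn, a meningeal fibroblast gene, was at 0 in both libraries and Ttr at 60.5 against 3300.2 FPKM. The part of these tissues in the value of H19 was not tested, and in such bulk samples fewer cells of a type and less RNA per cell cannot be told apart.

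Markers of the hippocampus itself were present. Of 14 neuron markers 13 were above 1 FPKM, led by Uchl1 at 429 against 383 FPKM, with a median log2 ratio of 0.20 and 0 past 1.5-fold. Miat and Snhg11, both neuronal, were at 0.30 and 0.24 on the same scale, while Bc1, also a neuronal RNA, was at -0.23. The 10 oligodendrocyte markers had a median of -0.22, astrocyte markers 0.20, microglia markers 0.11 and blood cell markers -0.07, each with 0 past 1.5-fold.

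**Figure D5:**
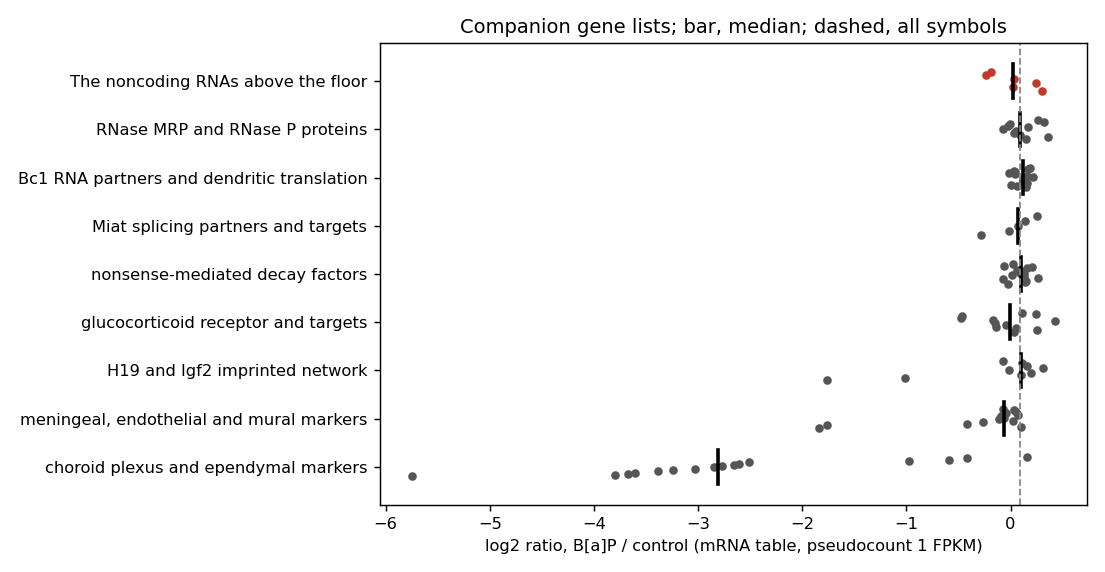
Log2 ratio of the treated to the control library in the mRNA table for the 6 noncoding RNAs above 1 FPKM (red) and for companion gene lists (grey), 1 point per gene at 1 FPKM or more in either library, with the median of each list (bar) and of all symbols (dashed). Among the grey lists drawn here, which leave out the neuron, glial and blood cell markers, the medians run from -0.067 (meningeal, endothelial and mural markers) to 0.12 (Bc1 partners), except for the choroid plexus and ependymal markers, whose median was -2.81.

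The symbols of the lncRNA table nearest to each RNA, by distance of log2(FPKM + 0.1) over the 2 libraries, were Hnrnpdl for Miat (distance 0.09), Bclaf1 for Snhg11 (0.07), the tRNA Trnk for Gas5 (0.04), Htr1b for Snhg4 (0.06), Bach1 for Bc1 (0.12) and Rps17l for H19 (0.14). For Rmrp the nearest was the tRNA Trns1, at a distance of 6.40, since no other named line approached its level. With 2 libraries this likeness is one of level and says nothing more.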

How the data were processed

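RNA-seq of hippocampus gave 1 library per group, grouped by title. The deposited mRNA and lncRNA tables hold FPKM values that the authors computed; the unit was inferred from the values. Per the submitters' processing notes, bcl2fastq and the builds rn6 and rn5 were used, with no role named. Aligner, counting tool and annotation are not given in the sources used. Values of the deposited miRNA tables are RPM, scaled by the authors. The RRBS (bisulfite) libraries were not used here, because placing sites in genes needs an annotation of their build.

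Members were matched by symbol in Python 3.11.15 (pandas 2.3.3, scipy 1.17.1). Log2 ratios used a pseudocount of 0.1 (lncRNA table) or 1 FPKM (mRNA table), which understates ratios of low genes, and floors of 0.5 and 1 FPKM in either library for counts. Plain ratios are of values without pseudocount. Depth constant and pairs of whole numbers in lowest terms were tested on simulated data, with a higher limit than the 50 used here. The counts behind a pair were not tested. The total depth is unknown. RefSeq (GRCr8) gave names, neighbours and sequences: 6 symbols matched directly and Rmrp by a synonym. Members and companion lists were chosen with earlier results of these data known. The rule for naming list genes takes the most abundant in the control library and the 2 with the largest log2 ratio; marker lists are named in part, and Nr3c1, Ogn and Dcn were named outside it, after their values were seen. Alternatives changed pseudocount, floor, scaling and table.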

Additional observations from a re-analysis of the deposited data

How the results depend on the processing

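No paired analysis was possible because each group had 1 library, and no library could be left out. Over 49 alternative values of the 7 log2 ratios, 46 stayed on their side of 0 within 0.39, the SD across lines, 1 moved further (H19, from -0.48 to -0.89 with a pseudocount of 0.01) and 2 changed sign: with the mRNA table in place of the lncRNA table and the same pseudocount, Gas5 went from -0.033 to 0.033 and Snhg4 from -0.042 to 0.022, through the scale factors of the tables. The mean over lines is among the 46 but equals the value given, since each symbol has 1 line, so it could not differ. The width of 0.39 exceeds the log2 ratio of each RNA above the floor (-0.35 to 0.25), so for these it checks little beyond the sign. H19 at -0.086 with a pseudocount of 1 is also among those counted as staying. The count of these RNAs past 1.5-fold among those above the floor was 0 in both tables under each alternative run; H19, below the floor, passed 1.5-fold with the pseudocount of 0.01 and in the mRNA table at -0.61 with the same pseudocount as the lncRNA table and at -0.76 relative to 1-line lncRNA symbols. Counts over all lines of the lncRNA table, 39 past 2-fold and 121 past 1.5-fold, were 6 and 30 with a pseudocount of 1, 98 and 540 with no floor, and 9 and 29 with a floor of 2 FPKM. Scaling each library to the median turned the split at 1.5-fold from 84 higher and 37 lower to 50 and 47, and in the mRNA table from 80 and 157 to 58 and 191. Counts over symbols of the mRNA table, 89 past 2-fold and 237 past 1.5-fold, were 180 and 474 with a pseudocount of 0.1 and 47 and 100 with a floor of 5 FPKM. Counting intervals could be had for H19 and Bc1 alone. At the smallest counts that the values allow, each includes no difference, and with larger counts this is not known. Scaling to the median and the mRNA-table scaling to its median were compared for every RNA; the latter, and the ratio relative to 1-line lncRNA symbols, were added after the data were seen.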
